A study of Mus musculus with 2 samples.

Results

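Macrophages of mouse epididymal adipose tissue that carried *Folr2* RNA but no detected *Lyve1*, *Timd4* or *Ccr2* RNA made up 520 of the 4385 cells kept from 2 single-cell libraries. They were selected on their own unique molecular identifier (UMI) counts: at least 1 UMI of *Folr2*, 0 UMIs of *Lyve1*, *Timd4* and *Ccr2*, fewer than 10 UMIs of *Lyz1*, 200 to 3500 genes and at most 10% mitochondrial UMIs. The control diet (CD) library held 255 of these cells, here called members, among 2364 kept cells, and the high-fat diet (HFD) library held 265 among 2021. Both libraries were droplet 3' libraries of sorted CD45+Lin-Ly6Clow/-F4/80+ cells from male C57/BL6 mice of 8 to 12 weeks. One library pooled 3 mice on a control diet with 11 kcal% fat, and the other pooled 3 mice given a diet with 58 kcal% fat overnight. No allele or other agent was used in either group. With 1 library per diet there was no replicate and no test, so every difference between diets is a difference between 2 pooled libraries, and all intervals are 95% intervals for counting error only.

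*Folr2* encodes folate receptor beta, a surface receptor typical of macrophages that live in tissues for long periods. In fat, such resident macrophages lie along vessels, take up debris and lipoproteins, and are commonly told apart from monocyte-derived macrophages by *Lyve1* (a hyaluronan receptor) and *Timd4* (a phosphatidylserine receptor) on the resident side and *Ccr2* (a chemokine receptor) on the recruited side. Because a droplet library samples only a part of each cell's RNA, a gene with no UMI in a cell may still have been expressed there.

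Members were shallow cells. The median member had 2658 UMIs and 1149 genes in the CD library and 1559 UMIs and 800 genes in the HFD library, while all kept cells had medians of 4490.5 UMIs and 1634 genes in CD and 2792 UMIs and 1186 genes in HFD. Fewer than 1000 genes were detected in 33.7% of CD members and 71.7% of HFD members. The median share of mitochondrial UMIs was 5.67% in CD members and 5.87% in HFD members, against 4.13% and 3.62% over all kept cells. Of 14 barcodes found in both libraries, 7 were kept in both and 0 belonged to a member in both.

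Members were 10.8% (9.56 to 12.1%) of what was kept in CD and 13.1% (11.7 to 14.7%) in HFD. This share followed the depth of the cell in each library. Among CD cells it was 28.5% from 1000 to under 2000 UMIs, 13.7% from 3000 to under 4000 UMIs and 2.34% at 6000 UMIs or more. Among HFD cells the matching shares were 23.5%, 11.2% and 1.61%. Within each of the 6 depth bins the intervals of the libraries overlapped.

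**Figure D1:**
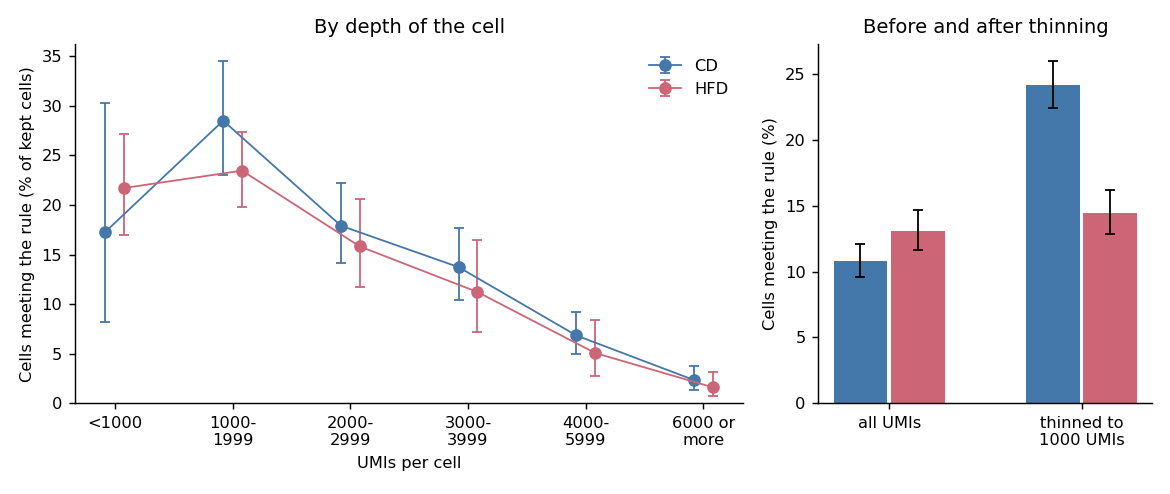
Share of kept cells that met the rule by UMIs per cell (left) and before and after thinning each cell to 1000 UMIs (right), in percent, with exact binomial 95% intervals as bars, for the CD and HFD libraries. The share is highest from 1000 to under 2000 UMIs and lowest at 6000 or more in both libraries, and the order of the libraries turns after thinning.

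The order of the libraries turned when each cell was thinned to 1000 UMIs before the rule was applied. In the CD library 559 of the 2312 remaining cells then met the rule (24.2%, 22.4 to 26.0%), and in the HFD library 254 of the remaining 1754 did (14.5%, 12.9 to 16.2%). Shallower cells were left out of this count, 52 in CD and 267 in HFD, of which 9 and 58 were members. Of the cells that met the rule after thinning, 371 in CD (66.4%) and 103 in HFD (40.6%) had not met it at full depth. *Lyve1* UMIs were present at full depth in 281 of those 371 CD cells and in 54 of those 103 HFD cells. *Ccr2* UMIs were present in 146 and 50 of them. Among Lyve1-positive cells (at least 1 UMI of *Folr2* and of *Lyve1*, 0 of *Timd4* and *Ccr2*, under 10 of *Lyz1*), 36.4% in CD and 24.0% in HFD met the members' rule once thinned, so the name Lyve1-negative states what was detected and not what the cells lacked.

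Cells just inside and just outside the thresholds are given by genes that were not part of the rule. *Folr2* (ENSMUSG00000032725, GRCm38 chromosome 7, 101839988 to 101857194, minus strand) was seen as exactly 1 UMI in 47 of the 255 CD members and in 136 of the 265 HFD members. CD members with 1 UMI of *Folr2* had 3730 CPM (UMIs of a gene divided by all UMIs of the same cells, scaled to counts per 1e+06) of *Pf4*, against 2412 CPM in the 47 CD cells that had 0 UMIs of *Folr2* and met the rest of the rule. In HFD these levels were 4154 CPM and 3844 CPM, the latter in 277 cells. CD cells with 1 UMI of *Lyve1* that met the rest of the rule had 6146 CPM of *Pf4* and 5794 CPM of *C1qa*, and CD members with 4 or more UMIs of *Folr2* had 6083 and 5787 CPM. The 2 CD and 3 HFD cells with 10 to 14 UMIs of *Lyz1* had 1716 and 1586 CPM of *Pf4*, and the 1 CD and 7 HFD members with 5 to 9 UMIs of *Lyz1* had 5454 and 3995 CPM. *Fn1*, a gene of recruited cells, stood at 592 CPM in the 58 CD cells and 765 CPM in the 57 HFD cells with 1 UMI of *Ccr2* that met the rest of the rule. Members with 1 UMI of *Folr2* had 610 CPM of *Fn1* in CD and 349 CPM in HFD. Those with 4 or more UMIs of *Folr2* had 73.8 and 390 CPM. The members with 5 to 9 UMIs of *Lyz1* had 564 CPM in CD and 2940 CPM in HFD.

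The label was checked on its 4 markers, *Folr2*, *Hpgd*, *Pf4* and *Ms4a7*, of which *Folr2* was part of the rule and the rest were read in the same cells. *Pf4* (chromosome 5, 90772435 to 90773383, plus strand), which encodes the chemokine CXCL4, stood at 5594 CPM in CD members and 4798 CPM in HFD members, and at 3258 and 1855 CPM in the other kept cells. *Hpgd* (chromosome 8, 56294585 to 56321043, plus strand), which encodes the enzyme that inactivates prostaglandins, stood at 319 CPM in CD members and 203 CPM in HFD members, against 120 and 50.4 CPM elsewhere. *Ms4a7* (chromosome 19, 11321039 to 11336146, minus strand), a membrane protein of the MS4A family, stood at 313 and 299 CPM, against 118 and 73.0 CPM. *Hpgd*, *Pf4* and *Ms4a7* were each higher in members than in other kept cells of both libraries. Those other cells include cells with *Ccr2* UMIs or at least 10 UMIs of *Lyz1*, which the rule left out. *Folr2* was higher too, in cells chosen for having it.

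At 1000 UMIs per cell, *Pf4* was seen in 95.1% of CD members and 94.2% of HFD members, and unthinned in 97.3% and 91.7%. The Lyz1-high cells, with at least 10 UMIs of *Lyz1* and 0 of *Timd4*, were set beside the members as cells outside the rule. They did not all lack *Folr2*, which was seen in 65.0% (CD) and 23.5% (HFD) of them, and after thinning in 20.5% and 5.79%. A *Pf4* UMI was seen after thinning in 44.7% (CD library) and 38.1% (HFD library) of Lyz1-high cells, and in 91.4% and 75.9% before. *Pf4* was thus also seen in many cells outside the members. *Hpgd* was seen in 25.2% of CD and 19.3% of HFD members after thinning (53.3% and 29.8% before), against 2.49% and 1.22% of Lyz1-high cells (10.5% and 5.45% before). *Ms4a7* was seen in 28.5% and 23.7% of members after thinning (48.2% and 33.2% before), against 2.10% and 1.22% (12.05% and 5.15% before). The median depth was 8021 UMIs in CD and 6581 UMIs in HFD Lyz1-high cells, so the unthinned shares compare deeper cells with shallower members. Lyve1-positive cells had shares close to the members' after thinning, at 97.4% in CD and 94.9% in HFD for *Pf4*, 25% and 17.1% for *Hpgd* and 23.9% and 22.3% for *Ms4a7*, so these markers did not set the members apart from them.

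Members were compared gene by gene with Lyve1-positive cells, 459 in CD and 187 in HFD with medians of 3160 and 1952 UMIs. Of 1262 genes with at least 100 UMIs over both sets in each library, 4 were at least 2-fold higher in members in both libraries (0.317%) and 2 were at least 2-fold lower (0.158%), and one of those 2 was *Lyve1* itself, at 0 by the rule. These genes are named because of their values. *Lpl*, which encodes lipoprotein lipase, stood at 603 CPM in CD members and 914 CPM in HFD members, against 229 and 443 CPM in Lyve1-positive cells. *Gdf15*, a stress-induced cytokine, stood at 135 and 167 CPM, against 39.2 and 62.9 CPM. *Cxcl1*, a neutrophil chemokine, stood at 161 and 238 CPM against 46.9 and 97.9 CPM, and *Ccl12*, a monocyte chemokine, at 232 and 148 CPM against 112 and 60.6 CPM. *Fcna*, which encodes the lectin ficolin A, was the lower gene beside *Lyve1*, at 403 and 561 CPM in members against 992 and 1156 CPM. Without cells of 10 or more stromal or cycling UMIs, 3 of these 4 higher genes and both lower genes were again past the fold, and among cells of 2000 to 4000 UMIs 0 of the 4 and 1 of the 2 were, with 508 genes left to compare.

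The members differed from Ccr2-positive Folr2-positive cells (284 in CD and 155 in HFD, medians of 5216.5 and 3050 UMIs) at more genes. Of 1437 genes, 27 were at least 2-fold higher in members in both libraries (1.88%) and 17 were lower (1.18%), among them *Ccr2*, at 0 by the rule. Their names were again taken from their values. The higher genes included *C4b*, a complement component, at 536 CPM in CD and 366 CPM in HFD members against 106 and 86.3 CPM. *Stab1*, the scavenger receptor stabilin-1, stood at 472 and 583 CPM against 144 and 168 CPM, and *Cd63*, a tetraspanin of late endosomes, at 1030 and 1240 CPM against 341 and 616 CPM. The lower genes included *Fn1* (fibronectin), at 154 and 316 CPM against 750 and 789 CPM, and *Il1b*, at 214 and 205 CPM against 713 and 696 CPM. *Cd52*, a small surface glycoprotein of leukocytes, stood at 381 and 259 CPM against 1361 and 960 CPM. Among cells of 2000 to 4000 UMIs, 0 of the 27 and 4 of the 17 were past the fold, of 431 genes compared.

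**Figure D2:**
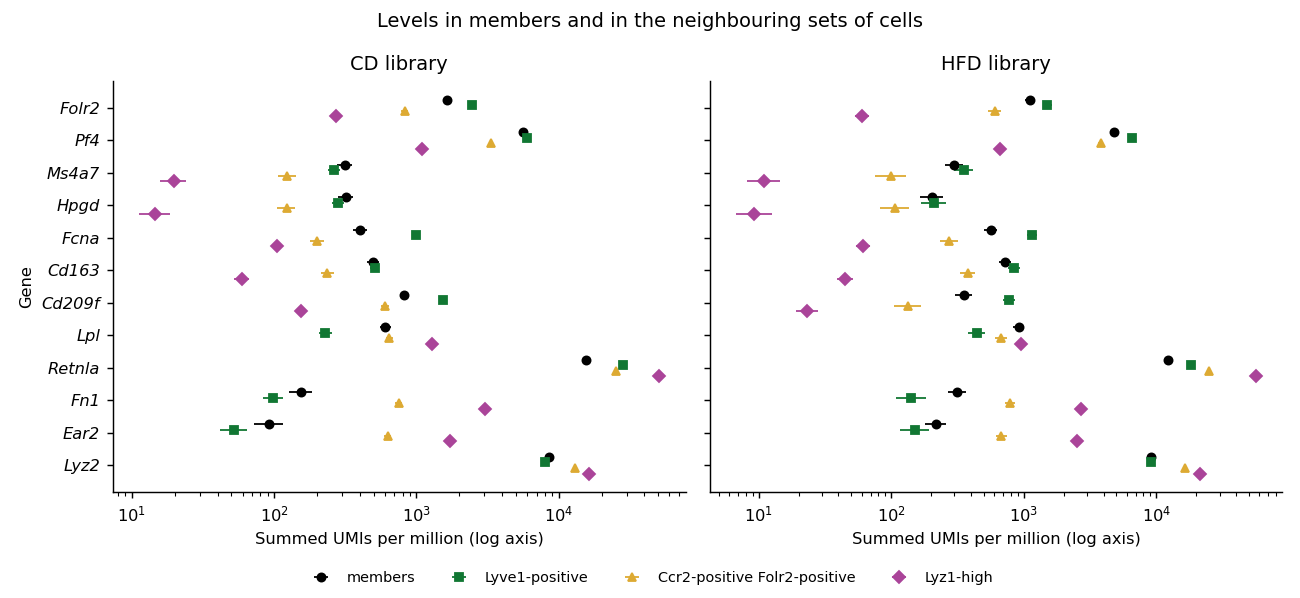
Summed UMIs in CPM (log axis) of 12 genes in members, Lyve1-positive cells, Ccr2-positive Folr2-positive cells and Lyz1-high cells of the CD (left) and HFD (right) library, with exact Poisson 95% intervals as bars. Members lie near Lyve1-positive cells for *Ms4a7*, *Hpgd* and *Lyz2*, and between Lyve1-positive and Ccr2-positive Folr2-positive cells for *Folr2*, *Cd209f* and *Fcna*.

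Against all other kept cells of the same library, 79 of 6391 genes (1.24%) were at least 2-fold higher in members of both libraries and 178 (2.79%) were at least 2-fold lower. These ratios come from the cells that the rule chose, so they describe the members and nothing is read from them. They changed with other settings: after thinning before the rule 2 of the 79 and 36 of the 178 were past the fold, of 2219 genes compared, and among cells of 2000 to 4000 UMIs 0 of the 79 and 11 of the 178 were, of 1785. With equal weight per cell, 15 of the 79 were. The genes with the highest ratios are given below with what they encode. *Hpgds* (chromosome 6, 65117293 to 65144908, minus strand), the synthase of prostaglandin D2, stood at 122 CPM in CD members and 107 CPM in HFD members against 32.8 and 17.8 CPM. *Pla2g2d*, a secreted phospholipase A2, stood at 242 and 61.3 CPM against 82.3 and 14.7 CPM. *Slc40a1* (chromosome 1, 45908068 to 45926523, minus strand), which encodes the iron exporter ferroportin, stood at 125 and 93.9 CPM against 36.4 and 20.0 CPM, and *Cp*, the ferroxidase ceruloplasmin, at 76.8 and 78.6 CPM against 28.6 and 16.7 CPM.

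*Vcam1* (chromosome 3, 116109949 to 116129688, minus strand), an adhesion molecule, stood at 91.9 CPM in CD and 144 CPM in HFD members against 16.3 and 32.8 CPM. *Gdf15* (chromosome 8, 70629393 to 70632456, minus strand) had the highest mean log2 ratio, 3.17 in CD and 2.01 in HFD, but its 107 CD UMIs came from 14 cells with 38 in 1 cell, while its 87 HFD UMIs came from 27 cells. *Gpx3*, a secreted glutathione peroxidase, likewise had 34 of its 71 CD UMIs in 1 cell. The other genes named by rank were *Hmgn1*, a nucleosome-binding protein, with log2 ratios of 1.43 and 2.19, *Adam33*, a metalloprotease, with 1.06 and 2.56, and *Tanc2*, a scaffold protein, with 1.63 and 2.11.

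The 10 genes with the lowest ratios had between 1 and 29 UMIs in the members of a library. *Hbb-bs*, a haemoglobin chain, had 29 UMIs in CD members and 4 in HFD members, or 36.5 and 7.66 CPM against 401 and 503 CPM in other kept cells. Its CD ratio was 0.062 without cells of 10 or more stromal or cycling UMIs. Its HFD ratio, -6.04 as reported, was -0.22 among cells of at least 1000 genes. *Areg*, which encodes the growth factor amphiregulin, had 5 and 6 UMIs (6.29 and 11.5 CPM, against 106 and 108 CPM). *H2-DMb2*, a subunit of the peptide loader of MHC class II, had 9 and 3 UMIs, and *Ramp1*, part of the receptor for the neuropeptide CGRP, had 10 and 2. *Slpi*, a secreted protease inhibitor, had 1 UMI in CD and 9 in HFD members. *Ndnf*, *Glipr2*, *Hr*, *Net1* and *Skint3* had between 1 and 4 UMIs in the members of each library.

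The same description was made for lists of known genes, some of which share members. Of all 6391 genes, 2685 were higher and 1774 lower in members of both libraries. Of 26 measured genes of resident macrophage identity, 24 were higher in members of both libraries, 3 of them at least 2-fold (*Ccl8*, *Fcgr1* and *Igf1*), and 0 were lower in both. The median log2 ratio of the list was 0.60 in CD and 1.40 in HFD, against 0.04 and 0.15 over all 6391 genes. *Selenop*, a selenium transport protein and the most abundant of the list, stood at 7079 CPM in CD and 5492 CPM in HFD members, and *Mrc1*, the mannose receptor, at 1212 and 1184 CPM. Of 15 measured genes of monocytes and recruited macrophages, 14 were lower in members of both libraries and 10 of these at least 2-fold, with medians of -1.48 and -2.54. *Ear2*, a ribonuclease of myeloid cells, was at 91.9 and 217 CPM in members against 877 and 1807 CPM in other kept cells. *Fn1* had log2 ratios of -3.32 and -2.68. *Lyz2*, the macrophage lysozyme and the most abundant gene of this list, had ratios of -0.59 and -1.04.

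Lists that can move with dissociation and RNA quality also differed. Of 26 immediate early genes, 19 were higher in both libraries (medians of 0.45 and 0.47), of 12 mitochondrial genes 11 were higher (0.41 and 0.76), and of 83 ribosomal protein genes 79 were lower (-0.30 and -0.65). The part of these in the other lists was not tested. Of 18 scavenging and endocytosis genes, 16 were higher in members of both libraries and 0 lower in both, with medians of 0.58 and 1.18, and 1 was past 2-fold (*Colec12*, a scavenger collectin). *Cd163*, the haptoglobin-haemoglobin receptor, stood at 497 CPM in CD and 726 CPM in HFD members against 252 and 192 CPM. Of 29 lysosome genes, 22 were higher and 4 lower in both libraries, with medians of 0.39 and 0.59 and with *Cd63* alone past 2-fold. Of 10 complement genes, 7 were higher and 3 lower in both. *C1qa*, a chain of the C1q recognition molecule, stood at 5157 and 4053 CPM in members. Of 13 iron and heme genes, 11 were higher in both, among them *Tfrc*, the transferrin receptor, with log2 ratios of 1.17 and 1.98.

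Eicosanoid genes differed in both directions. Of 18 measured, 3 were past 2-fold higher (*Hpgd*, *Hpgds* and *Ptger4*, a receptor for prostaglandin E2) and 3 past 2-fold lower (*Ptgs2*, the inducible cyclooxygenase, and the prostanoid receptors *Ptger2* and *Ptgir*). Folate genes were sparse: 5 of 18 were measured, *Folr2* included, and *Ggh*, a folate hydrolase, had 62 UMIs in CD and 41 UMIs in HFD members. Of 10 measured genes of alternative activation, 7 were higher in members of both libraries and 2 were lower. The list medians were 0.47 in CD and 0.56 in HFD. *Il10* was past 2-fold higher, and *Il1rn* and *Retnla* were past 2-fold lower. *Retnla*, a secreted product of alternative activation, stood at 15490 CPM in CD members and 12279 CPM in HFD members. Other kept cells had 36315 and 42500 CPM.

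Between the libraries, 1747 genes had at least 100 UMIs over the members of both. Of these, 28 were at least 2-fold higher in HFD members (1.6%) and 35 at least 2-fold lower (2%), around a median log2 ratio of -0.04 with 815 genes above 0 and 932 below. Of the 28 higher genes, 8 were also 2-fold higher in the other kept cells of the HFD library, and of the 35 lower genes, 16 were also 2-fold lower there. Those other cells pool sets whose shares differed between the libraries, such as Timd4-positive cells (15.6% in CD and 3.56% in HFD) and Lyz1-high cells (22.1% and 32.7%), and the part of this in their ratios was not tested. Of the 28 and 35 genes, 10 and 12 were past the fold after thinning before the rule (1061 genes compared), and 6 and 10 among cells of 2000 to 4000 UMIs (647 genes compared). Members of the CD library were deeper than those of the HFD library. A part of each set may have had *Lyve1* or *Ccr2* below detection, since deeper cells with either gene met the rule once thinned. The part of depth and detection in the ratios was not tested.

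Genes of lipid storage and transport were among the highest ratios. *Plin2* (chromosome 4, 86648386 to 86670060, minus strand), which encodes the coat protein of lipid droplets, stood at 543 CPM in CD members (431 UMIs in 153 cells) and 1709 CPM in HFD members (892 UMIs in 206 cells). Its log2 ratio was 1.66 (1.49 to 1.82) in members and 1.55 in other kept cells. In CD, 80 of the member UMIs were in 1 cell. *Fabp4* (chromosome 3, 10204088 to 10208576, minus strand), a fatty acid carrier, stood at 142 CPM in CD members and 479 CPM in HFD members, a log2 ratio of 1.75 (1.43 to 2.09), against -0.40 in the pooled other kept cells. That pooled sign did not hold in each set: *Fabp4* was higher in HFD in Timd4-positive (145 and 349 CPM), Lyve1-positive (141 and 198 CPM) and Lyz1-high cells (60.6 and 111 CPM). It was lower in HFD in Ccr2-positive Folr2-positive cells (280 and 122 CPM), in the other combinations (366 and 171 CPM) and in the cells with 0 UMIs of *Folr2* that met the rest of the rule (9015 and 1186 CPM), where 47 cells held 1013 of the 2953 CD UMIs. In HFD, 47 of its 250 member UMIs were in 1 cell. Without each library's highest cell the *Fabp4* ratio was 1.51, after thinning to 1000 UMIs before the rule 0.84, and among cells of 2000 to 4000 UMIs 0.25.

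*Angptl4* (chromosome 17, 33773750 to 33781830, minus strand), a secreted inhibitor of lipoprotein lipase, stood at 71.8 CPM in CD members and 174 CPM in HFD members, a log2 ratio of 1.28 (0.79 to 1.78), against -0.11 in other kept cells. Its highest cell held 5 of 57 UMIs in CD and 7 of 91 in HFD, and the ratio was 0.96 at a mitochondrial limit of 5%. Of the 10 measured genes of cholesterol efflux and lipid handling, 8 had a ratio above 0, as did 815 of all 1747 genes. Of the 10, 2 were past 2-fold (*Fabp4* and *Plin2*). The list median was 0.45, against -0.04 for the same genes in other kept cells. *Cd36*, a fatty acid and lipoprotein receptor, stood at 1285 and 2388 CPM (log2 ratio 0.89, 0.77 to 1.01, against 0.25), and *Apoe*, an apolipoprotein, at 13300 and 16267 CPM (0.29, 0.25 to 0.33, against -0.40). *Abca1*, the cholesterol exporter, stood at 196 and 343 CPM (0.80, 0.49 to 1.12, against -0.11). These pooled ratios did not stand for each set of other kept cells. In Ccr2-positive Folr2-positive cells *Cd36* stood at 628 CPM in CD and 1161 CPM in HFD. *Abca1* stood at 91.5 and 129 CPM there, and *Angptl4* at 31.8 and 40.6 CPM. Values of these genes in the remaining sets are not given here. Neither *Cd36* nor *Abca1* reached 2-fold as reported, but both did at a mitochondrial limit of 5% (1.11 and 1.04). *Cd36* also did with at least 1000 genes per cell (1.07) and with at least 2 UMIs of *Folr2* (1.01). Among cells of 2000 to 4000 UMIs the ratios were 0.50 for *Cd36* and 0.49 for *Abca1*.

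**Figure D3:**
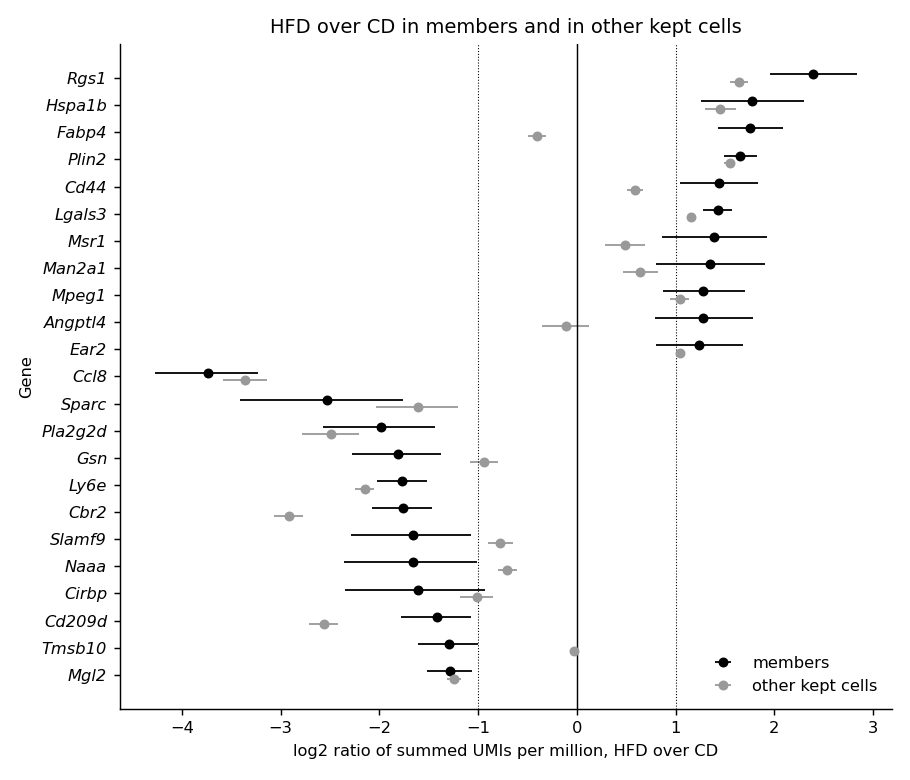
Log2 ratio of CPM, HFD over CD, for the named genes with the highest and lowest ratios, in members (black) and in other kept cells (grey), with exact 95% intervals as bars and dotted lines at 2-fold. *Fabp4* lies above 0 in members and below 0 in the pooled other kept cells, which differ among themselves, while *Plin2*, *Ccl8* and *Mgl2* lie close together.

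The other genes with high ratios are given with the ratio in other kept cells, which was also past 2-fold for *Rgs1*, *Lgals3*, *Mpeg1* and *Ear2*. *Rgs1* (chromosome 1, 144242296 to 144249242, minus strand), which shortens G protein signalling, had the highest ratio of the named genes, 2.39 (1.96 to 2.84), from 71.8 CPM in 25 CD cells to 376 CPM in 53 HFD cells, against 1.64 in other kept cells. *Cd44*, the hyaluronan receptor, stood at 108 and 293 CPM (1.44, against 0.59 in other kept cells). *Lgals3*, which encodes galectin-3, stood at 735 and 1974 CPM (1.42, 1.28 to 1.57, against 1.15), with 84 of 584 CD UMIs and 103 of 1030 HFD UMIs in 1 cell each. *Msr1*, the class A scavenger receptor, stood at 61.7 and 161 CPM (1.38, against 0.49), and *Mpeg1*, a pore-forming protein of phagosomes, at 103 and 251 CPM (1.28, against 1.04). *Man2a1*, a Golgi mannosidase, had a ratio of 1.35 against 0.64, and *Ear2* had 1.24 against 1.04. *Ear2* was under 2-fold after thinning before the rule (0.54), among cells of 2000 to 4000 UMIs (0.74) and with equal weight per cell (0.89). *Msr1* was at 0.95 after thinning, and *Man2a1* and *Mpeg1* were at 0.97 and 0.95 among members with at least 2 UMIs of *Folr2*.

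*Hspa1b* (chromosome 17, 34956436 to 34959238, minus strand) and *Hspa1a* (chromosome 17, 34969190 to 34972156, minus strand) encode near-identical inducible chaperones of the HSP70 family, and the split of UMIs between the pair is uncertain. *Hspa1b* stood at 57.9 CPM in CD members and 197 CPM in HFD members (log2 ratio 1.77, 1.25 to 2.30), and *Hspa1a* at 530 and 1096 CPM (1.05, 0.86 to 1.23). In other kept cells the ratios were 1.45 and 0.67. With that uncertain split, the ratios of the pair are not 2 separate observations. The 120 bases before the start of each gene (RefSeq, GRCm38.p6, minus strand, chr17:34972157-34972276 for *Hspa1a* and chr17:34959239-34959358 for *Hspa1b*) are shown with the letters GAANNTTC of a heat shock element in capitals.
Hspa1a: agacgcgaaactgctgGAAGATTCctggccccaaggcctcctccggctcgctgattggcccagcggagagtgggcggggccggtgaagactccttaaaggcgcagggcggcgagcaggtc
Hspa1b: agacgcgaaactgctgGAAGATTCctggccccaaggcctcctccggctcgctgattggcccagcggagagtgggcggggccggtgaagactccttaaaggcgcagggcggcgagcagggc

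The runs were the same at 119 of 120 bases, and the motif, which reads alike on both strands, began 104 bases before each start. The same letters were found in the 250 bases before the start in 6.69% of 32851 RefSeq promoters and in 6 of the 16 heat shock chaperone genes with a promoter in the table. A match is a description of the sequence only. Of the 11 measured heat shock chaperones, 10 had a ratio above 0 in members, as did 815 of all 1747 genes. Of the 11, 2 were past 2-fold, the pair *Hspa1a* and *Hspa1b*, and the list median was 0.52, against 0.24 for the same genes in other kept cells. *Hsp90aa1*, the inducible cytosolic HSP90, stood at 354 and 632 CPM (0.84, 0.60 to 1.07, against 0.19), and *Hspa8*, the constitutive chaperone of the HSP70 family, at 1744 and 2033 CPM. Immediate early genes, which also respond to tissue digestion, had a median of 0.12 over 23 genes with 0 past 2-fold, and *Fos* stood at 6753 and 6822 CPM. The part of dissociation in the heat shock values was not tested.

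Genes with lower levels in HFD members included several of resident macrophages. *Ccl8* (chromosome 11, 82115185 to 82116799, plus strand), a chemokine, had 687 UMIs in 110 CD cells (865 CPM) and 34 UMIs in 18 HFD cells (65.2 CPM), a log2 ratio of -3.73 (-4.27 to -3.23). Other kept cells had a ratio of -3.36, and 181 of the CD UMIs were in 1 cell, without which and without the highest HFD cell the ratio was -3.51. *Cbr2* (chromosome 11, 120729489 to 120732114, minus strand), a carbonyl reductase, stood at 710 and 209 CPM, a ratio of -1.77 in members and -2.92 in other kept cells. *Cd209d*, a lectin of the DC-SIGN family, stood at 431 and 161 CPM, with ratios of -1.42 and -2.56. *Mgl2*, the lectin CD301b, stood at 972 and 399 CPM, with ratios of -1.29 and -1.24, but in members -0.70 after thinning and -0.46 among cells of 2000 to 4000 UMIs. Of 25 measured resident genes, 4 were past 2-fold lower in HFD members (*Ccl8*, *Cbr2*, *Cd209d* and *Cd209f*), 0 were past 2-fold higher and the median was -0.32, against -0.95 for the same genes in other kept cells.

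*Pla2g2d* stood at 242 CPM in CD members and 61.3 CPM in HFD members (-1.98, -2.57 to -1.43, against -2.49 in other kept cells). *Ly6e*, a GPI-anchored surface protein, stood at 1031 and 303 CPM (-1.77), *Slamf9*, a receptor of the SLAM family, at 175 and 55.6 CPM (-1.65), and *Naaa*, a lysosomal lipid amidase, at 145 and 46.0 CPM (-1.65). *Cirbp*, an RNA-binding protein, stood at 128 and 42.2 CPM (-1.61). *Tmsb10*, an actin-binding peptide, stood at 556 and 226 CPM, a ratio of -1.30 against -0.03 in the pooled other kept cells. In Ccr2-positive Folr2-positive cells it was also lower in HFD, at 1720 CPM in CD and 948 CPM in HFD. The ratio in members was -0.36 after thinning before the rule and -0.85 among cells of 2000 to 4000 UMIs. Without cells of 10 or more stromal or cycling UMIs it was -0.96.

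*Sparc* and *Gsn*, genes of stromal cells, were among the lowest ratios and had many of their UMIs in single CD cells. *Sparc*, which encodes a matrix protein, had 132 UMIs in CD members of which 95 were in 1 cell, and 15 UMIs in HFD members (-2.53). *Gsn* (gelsolin) had 268 UMIs, of which 92 were in 1 cell, and 50 in HFD members (-1.82). The 7 stromal markers summed to 1141 CPM in CD members and 103 CPM in HFD members, against 166 and 75.9 CPM in other kept cells. *Dcn* (decorin) was the most abundant in CD, at 626 CPM, and *Gsn* in HFD, at 95.8 CPM, and *Col1a1*, *Col1a2*, *Lum* and *Pdgfra* were at 0 in HFD members. In CD, 2 cells held 806 of the 906 stromal UMIs. Without cells of 10 or more stromal or cycling UMIs the ratios were -0.07 for *Sparc* and -0.30 for *Gsn*, and 25 genes were past 2-fold lower, 23 of them among the 35.

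The 8 cycling markers also differed, at 753 CPM in CD members and 132 CPM in HFD members, with 0 of the 8 at 0 in either library. *Stmn1*, which encodes stathmin, was the most abundant in both, at 259 and 55.6 CPM, and 8 CD cells held 552 of the 598 UMIs. Of the B cell markers, *Ighm* stood at 413 and 217 CPM, while *Ms4a1* and *Igkc* were at 0 in both. Defining markers of T and NK cells were at 1 UMI in CD members and 0 in HFD members, those of mesothelial cells at 3 and 0, and those of eosinophils and mast cells at 0 and 1. Of the neutrophil markers, *S100a8*, *S100a9*, *Cxcr2* and *Retnlg* were at 0 and *Mmp9*, a metalloproteinase that macrophages also express, was at 214 and 280 CPM. The 10 dendritic cell markers summed to 256 and 93.9 CPM, led by *Cd209a*, with *Clec9a* at 0 in both. Endothelial markers summed to 6.29 and 30.7 CPM, peritoneal macrophage markers to 12.6 and 67.1 CPM with *Gata6* at 0 in both, adipocyte markers to 176 and 163 CPM and erythroid markers to 74.3 and 32.6 CPM. The part of these cells and of free RNA in the other results was not tested.

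The ratio of each of the 4 markers was nearer to 0 in members than in the pooled other kept cells, whose sets differed in share between the libraries. That difference was not tested. *Folr2* stood at 1638 CPM in CD and 1115 CPM in HFD members (-0.55, -0.70 to -0.41), and *Hpgd* had a ratio of -0.65 (-0.99 to -0.32). *Pf4* had a ratio of -0.22 (-0.29 to -0.15), which turned to 0.15 among cells of 2000 to 4000 UMIs. *Ms4a7* had a ratio of -0.07 (-0.37 to 0.23), whose interval included 0, and 0.55 among cells of 2000 to 4000 UMIs. In other kept cells the 4 ratios were -2.26 for *Folr2*, -1.25 for *Hpgd*, -0.81 for *Pf4* and -0.70 for *Ms4a7*. The *Folr2* ratio in members rests on cells chosen for having it. The pooled ratios did not stand for the nearest cells. Those with 1 UMI of *Lyve1* that met the rest of the rule had 6146 CPM of *Pf4* in CD and 6210 CPM in HFD. In the same cells *Ms4a7* stood at 255 and 302 CPM, *Hpgd* at 331 and 184 CPM and *Folr2* at 2279 and 1412 CPM.

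**Figure D4:**
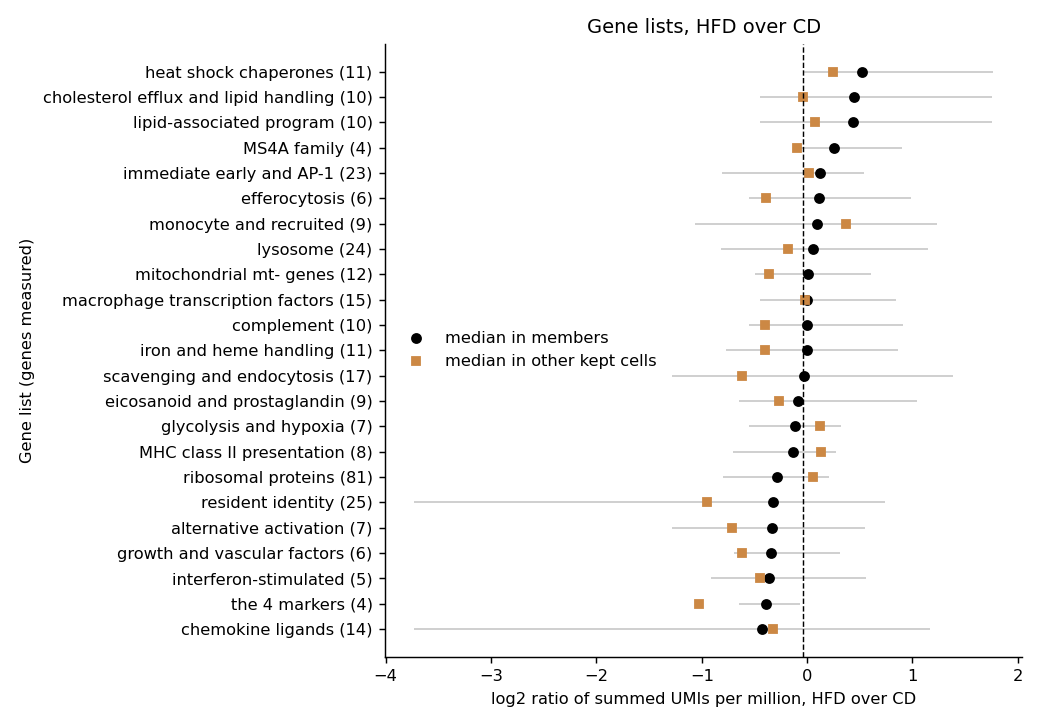
Median log2 ratio of HFD over CD for gene lists with at least 4 measured genes, in members (circles) and in other kept cells (squares), with the range over genes in members as grey lines, the number of measured genes in parentheses and the median of all measured genes as a dashed line. Heat shock chaperones (0.52) and lipid lists (0.45 and 0.43) have the highest medians in members, and chemokine ligands (-0.43) the lowest.

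Chemokine ligands went both ways. Of 14 measured, *Ccl6* (2479 and 5310 CPM, ratio 1.10) and *Ccl9* (1283 and 2874 CPM, ratio 1.16) were past 2-fold higher and *Ccl8* was past 2-fold lower, with a median of -0.43. *Ccl2* and *Ccl7*, the monocyte attractants, stood at 2011 and 1282 CPM and at 1703 and 973 CPM. Of 10 measured genes of the lipid-associated macrophage program, 3 were past 2-fold higher (*Fabp4*, *Lgals3* and *Plin2*), with a median of 0.43 against 0.07 in other kept cells, while *Trem2*, a lipid receptor of this program, had 118 UMIs in CD and 64 UMIs in HFD members (-0.28, -0.74 to 0.17). Of 9 measured monocyte genes, *Ear2* and *Fn1* (154 and 316 CPM, ratio 1.04) were past 2-fold higher and *S100a4* (446 and 213 CPM, -1.07) was past 2-fold lower. In HFD, 78 of the 165 *Fn1* UMIs were in the 7 members with 5 to 9 UMIs of *Lyz1*. Without members of 5 to 9 *Lyz1* UMIs, *Fn1* stood at 151 CPM in CD and 176 CPM in HFD (0.22, -0.20 to 0.63), and among cells of 2000 to 4000 UMIs its ratio was -0.41.

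Of the remaining lists with a gene past 2-fold, *Ctsd*, the protease cathepsin D, was the only one of 24 lysosome genes, with a list median of 0.06. *Pla2g7*, which encodes a phospholipase that degrades platelet-activating factor, was the only one of 9 eicosanoid genes (165 and 339 CPM, ratio 1.04). *Msr1* and *Mgl2* were those of 17 scavenging genes, with a median of -0.03 against -0.62 in other kept cells. None of 10 complement, 11 iron and heme, 15 transcription factor, 7 glycolysis, 5 interferon-stimulated or 3 inflammatory cytokine genes was past 2-fold in members. Of 81 ribosomal protein genes, 80 had a ratio below 0 in members, as did 932 of all 1747 genes. The list median was -0.28, against 0.06 in other kept cells. Cholesterol synthesis genes and SREBP targets were too sparse to compare, with 267 UMIs in CD and 161 UMIs in HFD members over 23 genes.

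Members varied widely in antigen presentation genes. At 1000 UMIs per cell, *H2-Aa*, *H2-Ab1*, *H2-Eb1* and *Cd74* together had a median of 36 UMIs in CD members (10th percentile 7.5, 90th percentile 75.5) and 29 UMIs in HFD members (6.6 and 79). Lyve1-positive cells had medians of 22 and 20 UMIs, and Ccr2-positive Folr2-positive cells 52 and 58.5 UMIs, so members lay between these sets in both libraries. Members with 5 or fewer of these UMIs were 7.32% in CD and 8.21% in HFD, against 17.1% and 17.7% of Lyve1-positive and 2.15% and 3.38% of Ccr2-positive Folr2-positive cells.

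**Figure D5:**
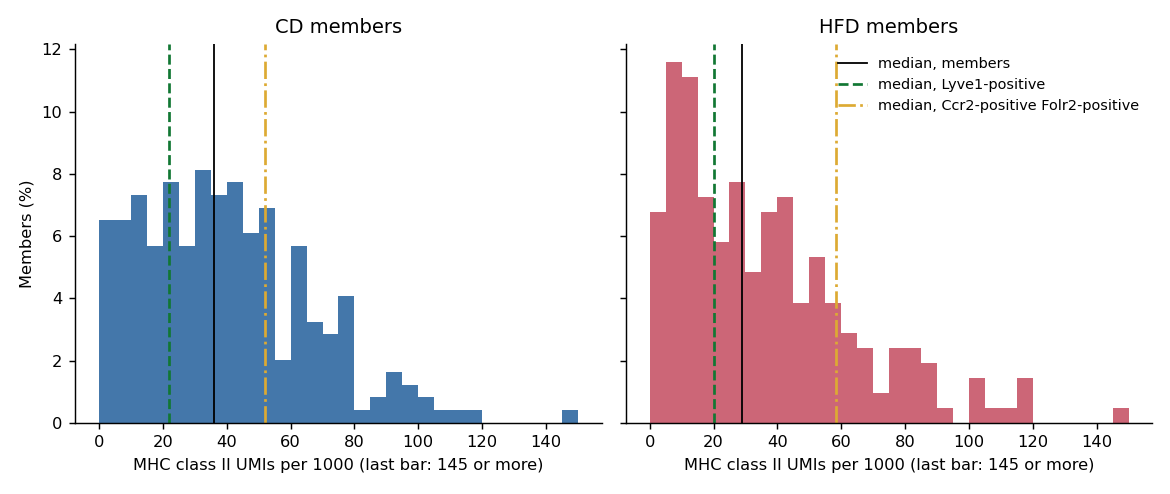
UMIs of *H2-Aa*, *H2-Ab1*, *H2-Eb1* and *Cd74* per cell after thinning to 1000 UMIs, as percent of CD (left) and HFD (right) members, with lines at the medians of members (36 and 29), Lyve1-positive cells (22 and 20) and Ccr2-positive Folr2-positive cells (52 and 58.5). Members spread from 1 to 240 UMIs in CD and from 1 to 150 in HFD.

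The 82 CD members with the fewest and the 82 with the most of these UMIs (the 69 and 69 in HFD), compared on the same thinned counts, also differed in other genes, and since the sum of a cell is fixed at 1000 UMIs a gene can be lower because others are higher. *Retnla* stood at 25402 CPM in the low and 12402 CPM in the high CD members, and at 16145 and 9623 CPM in HFD. *Mgl2* went the other way, at 488 and 1341 CPM in CD and 261 and 681 CPM in HFD. *Fcna* stood at 695 and 329 CPM in CD and 1290 and 333 CPM in HFD, and *Cd163* at 744 and 378 CPM in CD and 826 and 696 CPM in HFD. *Lyz2* stood at 5634 and 9463 CPM in CD and 6449 and 11333 CPM in HFD. *Folr2* itself was at 2024 and 1585 CPM in CD and 1333 and 1058 CPM in HFD. *Apoe* and *C1qa* went the other way, *Apoe* at 9720 and 16488 CPM in CD and 15058 and 20710 CPM in HFD, and *C1qa* at 4463 and 5878 CPM in CD and 3826 and 4580 CPM in HFD. *Pf4* stood at 4207 and 6049 CPM in CD and 4971 and 5174 CPM in HFD. For other genes the order was not the same in the libraries, on few UMIs or close values, without an interval or a test. *Ms4a7* stood at 329 and 463 CPM in CD (27 and 38 UMIs) but 435 and 203 CPM in HFD (30 and 14 UMIs). *Cd209f* stood at 927 and 646 CPM in CD (76 and 53 UMIs) but 261 and 362 CPM in HFD (18 and 25 UMIs). *Selenop* stood at 7768 and 7244 CPM in CD (637 and 594 UMIs) but 5681 and 6232 CPM in HFD (392 and 430 UMIs). The low members had been shallower before thinning, with medians of 2067 against 3725 UMIs in CD and 1537 against 2325 UMIs in HFD. Over all members, *Cd74* stood at 20131 and 18581 CPM (-0.12, -0.15 to -0.08) and *H2-Eb1* at 6562 and 5921 CPM (-0.15, -0.21 to -0.08), 0 of 8 measured MHC class II genes was past 2-fold between the libraries, and *H2-DMa*, a subunit of the peptide loader, stood at 545 and 347 CPM (-0.65, -0.91 to -0.40).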

How the data were processed

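The values are raw UMI counts, deposited by the authors without normalization as a matrix of genes and barcodes from Cell Ranger 3.0.2 on mm10. The 3 mice of each diet were pooled before sequencing. Over 31053 genes, 4459 barcodes from CD summed to 15003119 UMIs, and 3163 from HFD to 9164686. Cells were kept and members chosen by the rule given above; Python 3.11.15 with numpy 2.4.6, scipy 1.17.1, pandas 2.3.3 and scanpy 1.11.5 was used. UMIs were summed over the cells of a set and divided by the set's total (CPM). CPM had exact Poisson intervals, ratios exact conditional binomial intervals and shares exact Clopper-Pearson intervals, at 95%; each covers nothing but counting error.

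Members over other kept cells were compared at genes with at least 100 UMIs in each library, and HFD over CD at genes with at least 100 UMIs in the members of both libraries together. Named genes were the 4 markers, the 10 genes at each end of the mean ratio of members over others, and the 12 genes at each end of the diet ratio in members. The ranked genes were at least 2-fold as reported. They kept 1 direction, though not always 2-fold, under the planned other settings of the cell limits, doublets, thinning, weighting and scaling. The UMI minimum was varied for counts of genes only. *Hbb-bs* in CD turned without cells of 10 or more stromal or cycling UMIs, a setting chosen later. Mitochondrial, ribosomal protein, rule and unnamed genes were not ranked. From each gene list the most abundant members and those past 2-fold were candidates, and further genes were chosen after their values were seen. The members and the 36 lists were chosen with earlier results of these data known. Of the list genes, *Aldoa* and *Ifi30* had no single match. Results for a few genes are not reported here. Doublets were kept. Scrublet's own threshold called 0 CD and 2 HFD barcodes, so its calls were not used, and an alternative left out the 159 CD and 80 HFD barcodes with the highest scores (0.8% per 1000 barcodes), of which 5 and 5 were members. The comparisons with Lyve1-positive and Ccr2-positive Folr2-positive cells and the alternatives on stromal and cycling cells, on single cells and on members near the *Lyz1* threshold were chosen after seeing the data. Gene positions are from GENCODE M21 on GRCm38, matched by Ensembl ID, and were not used for counting.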

Additional observations from a re-analysis of the deposited data

Results flagged for a closer look

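*Fabp4*, the fatty acid carrier, was higher in HFD members than in CD members (log2 ratio 1.75) and lower in HFD than in CD among the other kept cells (-0.40, -0.49 to -0.31). In members the ratio was 0.84 after thinning before the rule and 0.25 among cells of 2000 to 4000 UMIs, and 47 of the 250 HFD UMIs were in 1 cell. Among the other kept cells *Fabp4* was higher in HFD in Timd4-positive, Lyve1-positive and Lyz1-high cells and lower in the remaining sets, and 47 cells without *Folr2* UMIs held 1013 of the 2953 CD UMIs. The difference between the 2 sets of cells was not tested, since each diet had 1 library.

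Barcodes that the quality limits left out, mostly for over 10% mitochondrial UMIs, also met the gene part of the rule. There were 627 such barcodes among the 2095 left out in CD (29.9%) and 201 among the 1142 left out in HFD (17.6%), against 255 and 265 members. They entered no comparison.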

How the results depend on the processing

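With 1 library per diet no library could be left out, and no batch, mouse or library effect can be told apart from diet. No paired analysis was possible because each diet had 1 library. The share of members, 10.8% in CD and 13.1% in HFD, was 8.35% and 6.27% among cells of at least 1000 genes, 7.05% and 8.21% at a mitochondrial limit of 5%, 8.80% and 6.38% with at least 2 UMIs of *Folr2*, 24.2% and 14.5% after thinning, and 15.9% and 13.9% among cells of 2000 to 4000 UMIs. CD was below HFD in 4 of the 8 settings, at the mitochondrial limit and with under 3 UMIs of *Lyz1* (10.4% and 12.2%), without the highest doublet scores (11.1% and 13.3%) and without stromal or cycling cells (10.7% and 13.2%). The number of genes higher in members than in other kept cells, 79, was 3 after thinning, 0 among cells of 2000 to 4000 UMIs, 17 with equal weight per cell, 213 with at least 30 UMIs per gene and 1207 with no minimum. The number lower, 178, was 39 after thinning and 12 at 2000 to 4000 UMIs. Between diets the 28 higher and 35 lower genes became 18 and 20 after thinning, 10 and 14 at 2000 to 4000 UMIs, 166 and 158 with at least 30 UMIs per gene, and 906 and 807 with no minimum. Centring on the median gene gave 58 higher and 203 lower genes for members over others, and 34 higher and 33 lower for HFD over CD. Against Lyve1-positive cells there were 1 higher and 1 lower gene at 2000 to 4000 UMIs, and 5 lower genes with at least 1000 genes per cell. Against Ccr2-positive Folr2-positive cells there were 0 higher and 4 lower at 2000 to 4000 UMIs, and 10 higher with at least 1000 genes per cell. Thinned and depth-limited sets hold fewer UMIs, so fewer genes were compared. Of 972 values for single genes, 756 stayed within the counting interval, and 10 changed sign, 2 of them for ratios past 2-fold: *Hbb-bs* in CD members over others, 0.062 without cells of 10 or more stromal or cycling UMIs, and *Fn1* between diets, -0.41 at 2000 to 4000 UMIs. The other 8 were for *Pf4*, *Ms4a7* and *H2-Eb1*. The cause was not tested.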
